A study of Mus musculus with 21 samples.

Results

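Aquaporins Aqp1, Aqp4, Aqp7 and Aqp8 were followed in heart RNA of mice given a high-fat diet, a renin vector, or both. They are 4 genes of the 19096 in the deposited gene matrix, matched there by gene name, and 4 of the 11 aquaporin genes it lists. Aqp8 was chosen because its level was higher in hearts with renin on the high-fat diet than in hearts on that diet without renin, so that difference is given below as a description, with no test. Each of the 4 passed the filter on low counts that preceded the tests.

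RNA was sequenced from 21 hearts of male C57BL/6NJ mice, aged 8 to 10 weeks at the start, in 4 groups. All groups had 10 weeks on their diet and a retro-orbital injection 6 weeks before the heart was taken. The groups are chow novirus (chow diet, 4 hearts), chow Renin (chow diet with an adeno-associated virus carrying renin, 6 hearts), HFD novirus (a high-fat diet, 60% fat by energy, 6 hearts) and HFD Renin (that diet with the renin virus, 5 hearts). The labels write novirus where the series text describes a null vector. The promoter and the target tissue of the renin vector are not given in the sources used here.

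Aquaporins are membrane channels built as tetramers, in which each subunit has its own pore. Some carry mainly water, while the aquaglyceroporins also carry glycerol, and a few pass hydrogen peroxide or ammonia. In heart, AQP1 is the main water channel of capillary endothelium and is also abundant in red blood cells, and AQP7 is the aquaglyceroporin through which glycerol can enter muscle cells. AQP4 is the water channel of astrocyte end-feet in brain and is held at the membrane of astrocytes and muscle fibres by syntrophin, a part of the dystrophin complex. AQP8 is best known from liver, exocrine pancreas and colon, and passes water, ammonia and hydrogen peroxide.

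On GRCm38, Aqp1 (ENSMUSG00000004655) lies on chromosome 6 from 55336432 to 55348555 on the plus strand. Aqp7 (ENSMUSG00000028427) lies on chromosome 4 from 41033074 to 41048139 on the minus strand. Aqp8 (ENSMUSG00000030762) lies on chromosome 7 from 123462291 to 123468004 on the plus strand. In GENCODE M21 no other gene overlaps these 3.

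The sequence before the start site is shown for Aqp8, the member chosen for its difference between groups, and for Aqp7, the member that passed a test below. A RefSeq promoter was found for 3 of the 4 members, and 2 are shown. Both are the 240 bases from position -250 to -11 of a RefSeq start site (GRCm38.p6), written 5′ to 3′ on the strand of the gene. Aqp8 has 1 start in the RefSeq table and Aqp7 has 2, of which the upstream one is shown. The windows are chr7:123462044-123462283 on the plus strand and chr4:41048147-41048386 on the minus strand.
Aqp8: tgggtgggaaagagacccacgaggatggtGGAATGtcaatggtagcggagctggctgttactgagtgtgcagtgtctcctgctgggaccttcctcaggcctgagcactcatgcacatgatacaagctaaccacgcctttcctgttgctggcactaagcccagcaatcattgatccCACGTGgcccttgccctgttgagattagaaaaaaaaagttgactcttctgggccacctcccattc
Aqp7: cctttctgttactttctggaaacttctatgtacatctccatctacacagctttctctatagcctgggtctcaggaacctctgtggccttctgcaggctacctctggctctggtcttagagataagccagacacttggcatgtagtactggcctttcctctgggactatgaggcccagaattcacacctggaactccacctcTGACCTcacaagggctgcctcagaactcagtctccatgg
Capitals mark matches to 6 motifs searched on both strands: the E-box CACGTG, the TEAD site CATTCC, the nuclear receptor half-site AGGTCA, the AP-1 site TGANTCA, the GC box GGGCGG and the TATA box TATAAA. No match overlapped another. The Aqp8 window holds an E-box at -75 to -70, a motif found in 5.69% of 32851 promoter windows of that length, and a TEAD site on the other strand at -221 to -216, found in 12.2%. The Aqp7 window holds 1 nuclear receptor half-site on the other strand at -49 to -44, found in 13.5%. The AP-1 site, GC box and TATA box, found in 6.58%, 31.3% and 12.1% of windows, had no match in these letters. The matches are a description of the sequence.

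Library totals were 18743226 to 21414093 estimated reads in chow novirus and 22805569 to 29265430 in the other groups, so depth and group cannot be told apart in comparisons with chow novirus. Reads of the mouse's own Ren1 were found in 4 of 21 hearts, with 5 at the most, so these files hold no check of which mice carried the renin vector. The 8 cardiomyocyte markers, among them Myh6 and Tnnt2, had reads in all 21 libraries. All 6 chow Renin libraries stood apart by transcripts of central neurons and glia: 7 of 8 astrocyte markers were higher than in chow novirus by edgeR, where 13.5% of all genes were called, and their summed level was 19.4 to 32.8 TPM (a level scaled to transcript length and library total) against 4.50 to 9.46 in the other 15 libraries. Comparisons that use chow Renin are given with that in view. In bulk tissue, fewer cells of a type and less RNA per cell cannot be told apart.

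Levels of different genes were compared in TPM, which allows for transcript length. Aqp1 was the most abundant aquaporin in each of the 21 hearts, at 64.6 to 139 TPM, and supplied 82.1% to 92.2% of the summed TPM of the 12 annotated aquaporin genes. Aqp7 followed at 6.45 to 15.9 TPM. Aqp8 ranged from 0.460 to 15.6 TPM and Aqp4 from 0 to 1.57 TPM. Aqp4 was the lowest of the 4 members in 19 of 21 hearts, the exceptions being HFD novirus replicates 4 and 6, where Aqp8 was lower.

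**Figure D1:**
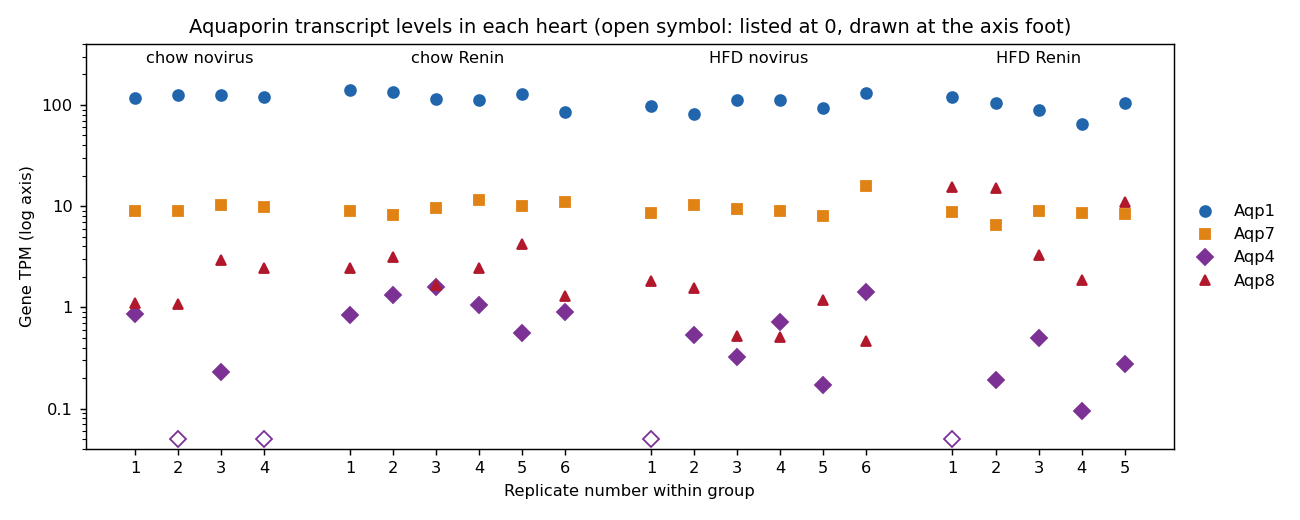
Gene TPM of Aqp1, Aqp7, Aqp4 and Aqp8 on a log axis in each of the 21 hearts, by replicate number within group. Aqp1 stays on top in every heart, and Aqp8 lies above Aqp7 in HFD Renin replicates 1, 2 and 5; open symbols are Aqp4 values listed at 0.

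The order of Aqp7 and Aqp8 was not the same in all hearts. In all 16 hearts outside HFD Renin the TPM of Aqp8 was below that of Aqp7, at a ratio of 0.0289 to 0.421. In HFD Renin the ratio was 1.77, 2.32, 0.366, 0.218 and 1.34 in replicates 1 to 5, so Aqp8 exceeded Aqp7 in 3 of 5 hearts. Aqp8 made up 2.48% to 11.8% of the summed aquaporin TPM in HFD Renin and 0.310% to 2.94% in the other groups.

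Aqp8 differed most between HFD Renin and HFD novirus, the comparison it was chosen by. In CPM, which is scaled to the library total by TMM factors and not to gene length, the HFD Renin hearts measured 21.6, 23.5, 4.88, 2.93 and 16.4 CPM in replicates 1 to 5. The HFD novirus hearts measured from 0.702 to 2.88 CPM with a median of 1.498. The groups did not overlap, although HFD Renin replicate 4 lay just above the highest HFD novirus heart. HFD Renin itself was spread widely, with replicates 1, 2 and 5 high and replicates 3 and 4 low. Group means were 13.9 ± 9.47 CPM (SD, n = 5) and 1.68 ± 1.01 CPM (SD, n = 6), and the fitted log2 fold change was 3.05 (SE 0.54). Of all genes tested, 1.95% were higher in HFD Renin with no overlap. The estimated reads behind these values were 84 to 607 per library in HFD Renin and 16 to 66 in HFD novirus.

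Against the chow groups, Aqp8 in HFD Renin overlapped both. The chow novirus hearts measured 1.69, 1.56, 4.21 and 3.39 CPM, with a mean of 2.71 ± 1.30 CPM (SD, n = 4), and 4 of 5 HFD Renin hearts were above all of them. The chow Renin hearts measured from 1.83 to 5.93 CPM with a median of 3.37 and a mean of 3.54 ± 1.52 CPM (SD, n = 6), and 3 of 5 HFD Renin hearts were above all of them. The log2 fold change was 2.34 (SE 0.61) against chow novirus and 1.96 (SE 0.50) against chow Renin. That of HFD novirus against chow novirus was -0.71 (SE 0.62), or -0.93 to -0.42 with 1 heart left out. The interaction, which subtracts the renin effect on chow from the one on fat, was 2.67 (SE 0.80). These comparisons share libraries with the one that chose Aqp8, and none was tested.

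Renin on chow is the single comparison of Aqp8 that shares no library with its choice. There the log2 fold change was 0.38 (SE 0.59), and the edgeR quasi-likelihood F test gave an adjusted p of 0.77 over 15216 genes. Without 1 heart it was 0.22 (chow novirus replicate 1), 0.20 (chow novirus replicate 2), 0.66 (chow novirus replicate 3) or 0.19 (chow Renin replicate 5), with an edgeR adjusted p of 0.601 or more. A total of 2 of 6 chow Renin hearts lay above all chow novirus hearts, and the groups overlapped. Of all genes tested in this comparison, 13.5% were called at an adjusted p under 0.05, and of the 4 aquaporins 0 were called (0 at an unadjusted p under 0.05; DESeq2 also called 0). With a score of clock genes as a covariate the sign of Aqp8 turned, to -0.78 (SE 0.64, edgeR adjusted p 0.546). The scores of these groups did not overlap, so score and group cannot be told apart in this comparison.

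**Figure D2:**
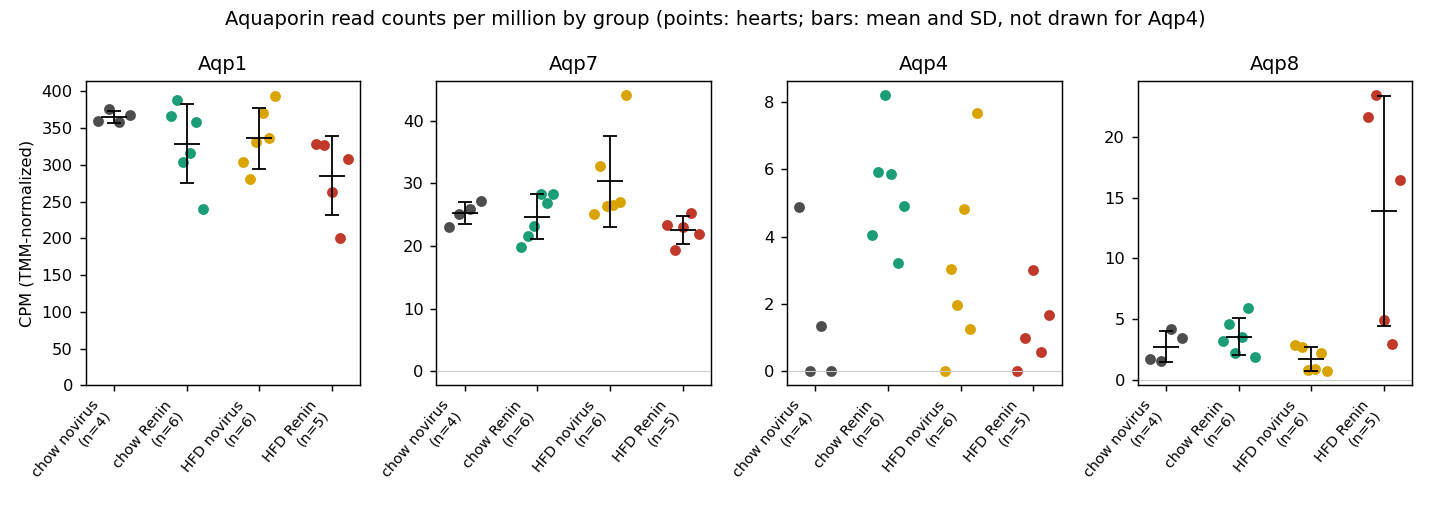
TMM-normalized CPM of Aqp1, Aqp7, Aqp4 and Aqp8 in the 4 groups, on linear axes, with 1 point per heart and, except for Aqp4, the mean and SD as bars. Aqp8 is spread from 2.93 to 23.5 CPM in HFD Renin and stays under 6 CPM in the other groups, while 4 of 5 HFD Renin hearts lie below all HFD novirus hearts for Aqp7 in CPM (1 of 5 in TPM).

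The deposited gene matrix, in which the authors scaled their own gene signal, showed the same layout for Aqp8. Its signal was 2.54 to 20.3 in HFD Renin, 0.598 to 2.48 in HFD novirus, 1.57 to 5.18 in chow Renin and 1.39 to 3.64 in chow novirus. HFD Renin and HFD novirus did not overlap in that signal either.

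Of 3 Aqp8 transcripts quantified, Aqp8-201 held most of the gene's TPM in HFD Renin, at 83.8% to 90.1% in each heart. Aqp8-202, whose annotated ends lie within those of Aqp8-201, held 7.30% to 16.2% there and had reads in 5 of 5 hearts. In the other groups, where the gene has fewer reads, the share of Aqp8-201 ranged from 37.2% to 100%. Aqp8-203 was listed above 0 in 2 HFD Renin and 2 chow novirus hearts. Reads are divided between such transcripts by estimation, so these shares carry an error that the files do not give.

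Several measures moved with Aqp8 within HFD Renin. The clock score, the mean log2 CPM of genes such as Dbp and Nr1d1 minus that of genes such as Arntl, was 2.17, 2.76, 3.22, 3.19 and 2.79 in replicates 1 to 5, so that the 3 hearts with high Aqp8 had the 3 lowest scores of all 21. It was 3.10 to 3.46 in HFD novirus, 2.82 to 3.17 in chow Renin and 3.38 to 3.62 in chow novirus. Every chow novirus score lay above all chow Renin and HFD Renin scores. Score and group therefore cannot be told apart in comparisons of those groups with chow novirus, here and below. A call lost under the covariate there does not show a part of the clock. HFD Renin overlapped HFD novirus only through replicates 3 and 4. With the score as a covariate the log2 fold change of Aqp8 was 1.80 (SE 0.58) against HFD novirus and 0.49 (SE 0.77) against chow novirus. Its part in the result was not tested. No collection times are given in the sources used here.

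Nppa, which encodes the atrial natriuretic peptide and is also made by ventricle under load, was 1540, 938, 529, 154 and 828 TPM in HFD Renin replicates 1 to 5, again highest in replicates 1, 2 and 5. It was higher in HFD Renin than in HFD novirus (2.40, edgeR adjusted p 0.024), or by 1.41 with the clock covariate (adjusted p 0.624), and its part in the Aqp8 result was not tested. The other 5 atrial markers, among them Myl7 and Sln, summed to 12.6, 11.7, 761, 26.0 and 12.5 TPM in the same hearts, so atrial transcripts other than Nppa were high in replicate 3, where Aqp8 was low. Of the 5 atrial markers tested, 1 was called (Nppa), where 11.1% of all genes were, with a median log2 fold change of -0.07. In HFD novirus the other 5 summed to 982 TPM in replicate 3, which had 0.792 CPM of Aqp8. In chow novirus replicate 3 they summed to 1130 TPM, and that heart had the most Aqp8 of its group, at 4.21 CPM. In chow Renin replicates 1 and 3 they summed to 896 and 510 TPM, with 3.21 and 2.22 CPM of Aqp8. Exocrine pancreas markers, such as Prss2 and Cela2a, summed to at most 0.287 TPM in any of the 21 hearts. Liver markers summed to at most 4.02 TPM in HFD Renin, with the 3 hearts of high Aqp8 at 0.467, 0.712 and 0.443 TPM.

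Markers of some other cell types also set HFD Renin replicates 1, 2 and 5 apart from replicates 3 and 4. Endothelial markers summed to 291, 257 and 292 TPM in the 3 hearts with high Aqp8 and 237.8 and 248 TPM in the other two. Red blood cell markers were lower in the 3 hearts, at 1869, 1355 and 1349 TPM against 2789 and 2363 TPM. Central neuron markers were lower too, at 38.4, 38.4 and 44.1 TPM against 54.5 and 47.2 TPM, as were those of adipocytes and of skeletal muscle. Cardiomyocyte markers summed to 47770, 46300 and 48160 CPM against 51960 and 53220 CPM, a split that their TPM did not show. Endocardial and venous markers did not split the hearts this way, at 21.4, 17.7 and 15.8 TPM against 20.1 and 26.2 TPM. Nor did astrocyte markers, at 4.50, 7.27 and 9.46 against 7.98 and 8.51 TPM. Oligodendrocyte markers did not either, at 10.7, 14.95 and 14.7 against 18.98 and 14.3 TPM. The part of any of these cells in the Aqp8 values was not tested.

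The 5 genes most like Aqp8 over the 21 libraries, by Spearman's rho of log2 CPM among 14266 candidate genes, were Eif3b, Rcan1, Rab11fip5, Ankrd1 and Mafk. These are the highest values of a search and are given as a description. Eif3b is a subunit of a translation initiation factor, Rcan1 a regulator of calcineurin, Rab11fip5 a partner of the membrane traffic protein RAB11, Ankrd1 a stretch-responsive protein of the sarcomere and Mafk a small Maf transcription factor. Spearman's rho was 0.91 for Rcan1, with a Pearson r of 0.90 that stayed at 0.90 without the 2 libraries farthest from the median of Aqp8. For Mafk, rho was 0.89 and r was 0.91, or 0.84 without those libraries. For Ankrd1 they were 0.89 and 0.88, or 0.84. The hearts share their groups, so the r of deviations from the group means is given too, at 0.79 for Rcan1, 0.86 for Mafk and 0.69 for Ankrd1.

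In HFD Renin replicates 1 to 5, Rcan1 measured 314, 156, 86.0, 79.1 and 162 CPM. In the same hearts Mafk measured 81.0, 82.5, 64.1, 56.3 and 72.1 CPM. Both put replicates 1, 2 and 5 above replicates 3 and 4, as Aqp8 did. Ankrd1 did the same, at 2840, 3453, 2076, 1907 and 3200 CPM. Eif3b and Rab11fip5 did not, as replicate 1 was below replicate 3 in each. Eif3b measured 134.8, 154, 136.6, 130 and 141.4 CPM in replicates 1 to 5, and Rab11fip5 118.2, 140.6, 120.4, 105.6 and 121.4 CPM.

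**Figure D3:**
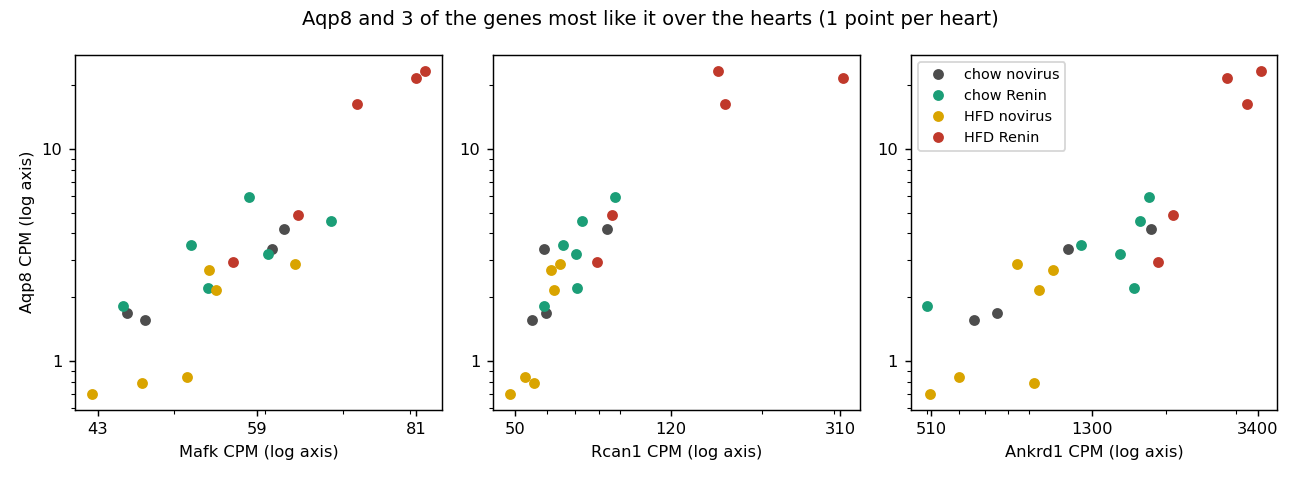
Aqp8 CPM against Mafk, Rcan1 and Ankrd1 CPM, on log axes, with 1 point per heart colored by group. HFD Renin replicates 1, 2 and 5 lie at the top right of each panel, and replicates 3 and 4 lie among or near the chow hearts.

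Aqp7, the glycerol channel, was lower in HFD Renin than in HFD novirus. The HFD Renin hearts measured 23.4, 19.3, 23.0, 25.3 and 21.9 CPM. The HFD novirus hearts measured from 25.1 to 44.1 CPM with a median of 26.8, and 4 of 5 HFD Renin hearts were below all of them. In TPM 1 of 5 was, with HFD Renin at 6.45 to 8.93 TPM and HFD novirus at 8.06 to 15.9 TPM. The group means were 22.6 ± 2.19 CPM (SD, n = 5) and 30.3 ± 7.27 CPM (SD, n = 6), and by edgeR the log2 fold change was -0.43 ± 0.13 (SE), with an adjusted p of 0.033. Aqp7 was the only called gene of Aqp1, Aqp4 and Aqp7 in this comparison, in which 11.1% of all genes were called and 5.08% were called lower. The members were chosen with earlier results of these data known.

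The call was lost without any 1 of 5 hearts. HFD novirus replicate 6 had the highest Aqp7 of all 21 hearts, and without it edgeR gave -0.29 ± 0.10 (SE), with an adjusted p of 0.0637. The adjusted p was also above 0.05 without HFD novirus replicate 2 (0.0625) or HFD Renin replicate 1, 2 or 5 (0.0657, 0.0962 and 0.0802), in a fit of these 2 groups alone (0.0826) and with the clock score as a covariate (0.525). Adipocyte markers, such as Adipoq and Plin1, summed to 0.167 to 12.2 TPM in HFD Renin and 0.303 to 11.6 TPM in HFD novirus, with 0.374 TPM in the heart with the most Aqp7. Cardiomyocyte markers were also lower in this comparison: 5 of 8 were lower by edgeR and 0 higher. Of all genes, 11.1% were called and 5.08% called lower. The median log2 fold change was -0.28 for these markers and -0.01 over all genes. In HFD novirus replicate 6, the heart with the most Aqp7, they summed to 53720 CPM, the lowest of its group. Their TPM there was the highest of the group, at 38550. Tnni3, a cardiac troponin, changed by -0.53 (edgeR adjusted p 0.000818) and Myl2, the ventricular myosin light chain, by -0.32 (adjusted p 0.0194). All 5 calls were lost with the clock covariate, with Tnni3 at -0.40 (edgeR adjusted p 0.137) and Myl2 at -0.23 (adjusted p 0.525). Their part in the Aqp7 result was not tested.

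In the other comparisons Aqp7 passed no test. All genes were called there at 0.0657% for HFD novirus and 8.29% for HFD Renin, each against chow novirus, and at 22.6% for HFD Renin against chow Renin. The chow novirus hearts measured 23.1, 25.1, 25.9 and 27.3 CPM, and the chow Renin hearts ranged from 19.8 to 28.4 CPM with a median of 25.0. Log2 fold changes were 0.26 (SE 0.14, edgeR adjusted p 0.494) for HFD novirus against chow novirus, -0.04 (SE 0.14, adjusted p 0.911) for chow Renin against chow novirus, -0.17 (SE 0.14, adjusted p 0.507) for HFD Renin against chow novirus and -0.13 (SE 0.13, adjusted p 0.52) for HFD Renin against chow Renin. The interaction was -0.39 (SE 0.19, edgeR adjusted p 0.21), so the effect of renin on Aqp7 was not shown to differ between diets. Without HFD novirus replicate 6 the diet value was 0.12 and the interaction -0.25. Without HFD Renin replicate 2 HFD Renin was at -0.11 against chow novirus and -0.08 against chow Renin, and the latter was -0.21 without chow Renin replicate 1. The value near 0 for chow Renin against chow novirus ranged from -0.08 to 0.03 without 1 heart.

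The longest Aqp7 transcript, Aqp7-201, held 79.1% to 100% of the gene's TPM in each heart. Aqp7-202 had reads in 2 to 3 hearts of each group. The gene most like Aqp7 over the 21 libraries was S1pr3, a receptor for sphingosine 1-phosphate, with a rho of 0.88 and an r of 0.84, or 0.82 without the 2 libraries farthest from the median of Aqp7. Tspan15, Fbxl12, Cacng6 and Oard1 followed, with rho from 0.80 to 0.85.

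Genes that handle glycerol and triglyceride were read beside Aqp7. In HFD Renin against HFD novirus, 2 of 18 rose and 4 fell, against 11.1% of all genes called, with a median log2 fold change of -0.13 against -0.01 over all genes. G0s2, an inhibitor of triglyceride lipase, fell by 0.63 on the log2 scale (edgeR adjusted p 0.00509), as did Dgat2, which makes triglyceride, at -0.33 (adjusted p 0.0199), and Plin5, a lipid droplet coat, at -0.36 (adjusted p 0.0286). Glycerol kinase, Gk, which traps glycerol in the cell, rose by 0.41 (edgeR adjusted p 0.01). With the clock score as a covariate these 4 calls were lost, at -0.44 for G0s2, -0.19 for Dgat2, -0.30 for Plin5 and 0.28 for Gk (edgeR adjusted p 0.36 to 0.602). Gk differed in its renin effect between the diets, with an interaction of 0.69 (SE 0.14, edgeR adjusted p 0.00201). Of the 18, 3 were called higher and 0 lower in the interaction, where 10.4% of all genes were called. The interaction uses the chow Renin libraries with neuron and glia transcripts.

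Against chow novirus 3 of the 18 fell in HFD Renin, namely Dgat2 (-0.53, edgeR adjusted p 0.00232), G0s2 (-0.56, adjusted p 0.0225) and Lpl, the lipase of the capillary wall (-0.38, adjusted p 0.0334), against 8.29% of all genes called. With the clock covariate these 3 calls were lost too (edgeR adjusted p 0.565 to 0.806), with Dgat2 at -0.31 and G0s2 at -0.25 but Lpl at -0.43, no smaller than before. Against chow Renin 4 rose and 3 fell, where 22.6% of all genes were called. With the clock covariate all of these but Lpl (-0.30, edgeR adjusted p 0.0556) stayed called, such as Gk at 0.37 (adjusted p 0.0108) and Dgat2 at -0.26 (adjusted p 0.0366). In chow Renin against chow novirus 1 fell, where 13.5% were called. The diet alone gave 0 of 18 by edgeR and 1 by DESeq2, with 8 of 18 at an unadjusted edgeR p under 0.05, against 1668 of all 15216 genes.

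Aqp1, the endothelial and red cell water channel, passed no test in any of the 6 comparisons. The chow novirus hearts lay close together at 359.7, 376, 358 and 368 CPM. The HFD Renin hearts measured 328.5, 326.6, 263, 201 and 308 CPM, all below the chow novirus hearts, with replicate 4 the lowest of all 21. Means were 366 ± 8.19 CPM (SD, n = 4) and 285 ± 54.2 CPM (SD, n = 5). By edgeR the log2 fold change was -0.36 ± 0.13 (SE, n = 5 and 4, adjusted p 0.102), and 5.07% of all genes were lower in HFD Renin with no overlap. In TPM the groups did overlap, at 117 to 127 in chow novirus and 64.6 to 119 in HFD Renin.

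Chow Renin ranged from 240.3 to 388 CPM of Aqp1 with a median of 337, and HFD novirus from 281 to 394 CPM with a median of 334. Log2 fold changes were -0.15 (SE 0.13, edgeR adjusted p 0.519) for chow Renin and -0.12 (SE 0.13, adjusted p 0.782) for HFD novirus, each against chow novirus. They were -0.24 (SE 0.12, edgeR adjusted p 0.222) for HFD Renin against HFD novirus and -0.20 (SE 0.12, adjusted p 0.253) against chow Renin. The interaction was -0.08 (SE 0.18, edgeR adjusted p 0.842), in a comparison in which 10.4% of all genes were called. Without HFD Renin replicate 4, the heart with the least Aqp1, these were -0.13, -0.10 and 0.02. Chow Renin against chow novirus was -0.08 without chow Renin replicate 6, and HFD novirus against chow novirus was -0.07 without HFD novirus replicate 2. Without any other heart the interaction stayed between -0.16 and -0.03.

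Markers of the cells that carry AQP1 were measured in the same hearts. Of 8 endothelial markers, such as Pecam1 and Cdh5, 0 passed the edgeR test in HFD Renin against chow novirus (0 at an unadjusted p under 0.05, and 0 by DESeq2), with a median log2 fold change of 0.11, and their summed level was 237.8 to 292 TPM in HFD Renin and 232 to 274 TPM in chow novirus. Of 6 red blood cell markers 0 passed edgeR either (0 at an unadjusted p under 0.05, and 0 by DESeq2), at 1349 to 2789 and 1488 to 2252 TPM. Of all genes, 8.29% were called in this comparison and 23.9% had an unadjusted p under 0.05. Relative to chow Renin, 3 of the 8 endothelial markers rose in HFD Renin, namely Kdr (0.53, edgeR adjusted p 0.0171), Emcn (0.40, adjusted p 0.0396) and Tek (0.27, adjusted p 0.0427), where 22.6% of all genes were called. Under the clock covariate Kdr was at 0.44 (edgeR adjusted p 0.0633) and Emcn at 0.41 (adjusted p 0.0616), while Tek stayed called at 0.30 (adjusted p 0.0458).

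Aqp1 has 1 quantified transcript, which took all of its reads. The genes most like it were Gba2, Afap1l1, Taok2, Timp4 and Tnnt1, with rho from 0.76 to 0.79. Timp4, an inhibitor of matrix metalloproteinases, had an r of 0.75 over all libraries, 0.72 without the 2 farthest from the median of Aqp1 and 0.78 for deviations from the group means.

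Aqp4, the astrocyte and muscle water channel, was low and uneven. The chow novirus hearts measured 4.88, 0, 1.35 and 0 CPM. The HFD Renin hearts measured 0, 1.01, 3.02, 0.593 and 1.67 CPM. HFD novirus ranged from 0 to 7.67 CPM with a median of 2.50, and chow Renin from 3.22 to 8.21 CPM with a median of 5.39. In all 6 chow Renin hearts Aqp4 was above every HFD Renin heart, and chow novirus and HFD novirus overlapped with each group.

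Aqp4 (ENSMUSG00000024411) lies on chromosome 18 from 15389496 to 15410982 on the minus strand of GRCm38. In GENCODE M21 a gene on the other strand overlaps it, and whether reads were counted by strand is not given in the sources used here, so reads of the overlap cannot be told apart.

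Aqp4 was listed at exactly 0 reads in 4 of 21 libraries, namely chow novirus replicates 2 and 4, HFD novirus replicate 1 and HFD Renin replicate 1, while the other 17 held 17 to 222 reads. Such a 0 can be a failed estimate, so no mean is given, and results are also given without those libraries. A count of 0 allows up to 0.126 to 0.167 CPM at the depths of those 4 libraries, for counting error only. Of 11 Aqp4 transcripts quantified, 3 had reads in any library, and Aqp4-201 held a median of 95.2% of the gene's TPM where it was above 0.

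Aqp4 passed no test in the fit of all libraries. Between HFD Renin and chow Renin edgeR gave a log2 fold change of -2.07 ± 0.91 (SE, adjusted p 0.117), the groups did not overlap, and 9.78% of all genes were lower in the same way. A fit of those 2 groups alone gave -2.07 (SE 0.57, edgeR adjusted p 0.0228), and a fit without the 4 libraries at 0 gave -1.78 (SE 0.54, edgeR adjusted p 0.0371), where the libraries left out were picked by Aqp4 itself. In chow Renin against chow novirus it was 1.77 (SE 0.99, edgeR adjusted p 0.291), with 4 of 6 chow Renin hearts above all chow novirus hearts. The others were 0.99 (edgeR adjusted p 0.766) for HFD novirus and -0.30 (SE 1.07, adjusted p 0.895) for HFD Renin, each against chow novirus, and -1.30 (SE 0.92, adjusted p 0.401) for HFD Renin against HFD novirus. The interaction was -3.06 (SE 1.35, edgeR adjusted p 0.179). Chow novirus replicate 1 held most of that group's Aqp4 reads. Without it, HFD Renin against chow novirus turned to 1.49 (SE 1.29), chow Renin against chow novirus was 3.57, HFD novirus against chow novirus 2.78 and the interaction -4.86 (edgeR adjusted p 0.054 to 0.558). Chow novirus replicates 2 and 4 and HFD novirus replicate 6 also moved HFD novirus against chow novirus by more than 1.5 times, to 0.58, 0.57 and 0.51 without each, and without HFD novirus replicate 6 HFD Renin against HFD novirus was -0.81. Without the 4 libraries at 0, chow Renin against chow novirus was 0.78, HFD novirus against chow novirus 0.25, HFD Renin against chow novirus -0.99, and the interaction -2.03, none of them called by edgeR.

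The chow Renin libraries in which Aqp4 was high are those with astrocyte transcripts. Gfap, the intermediate filament of astrocytes, ranged from 2.98 to 6.42 CPM in chow Renin and from 0.648 to 0.779 CPM in chow novirus, and its log2 fold change by edgeR was 2.43 ± 0.26 (SE), with an adjusted p of 1.49e-07. Slc1a2, a glutamate transporter, changed by 2.38 (SE 0.18, edgeR adjusted p 1.04e-08) in that comparison. All 8 astrocyte markers were lower in HFD Renin than in chow Renin by edgeR, where 22.6% of all genes were called, with a median log2 fold change of -1.91. The part of astrocyte RNA in the Aqp4 values of chow Renin was not tested. In HFD novirus replicate 6, Aqp4 reached 7.67 CPM with the astrocyte markers at 8.25 TPM. Aqp4 is also abundant in fast skeletal muscle, and 8 markers of that tissue summed to 3.63 to 6.46 TPM in chow Renin and 1.95 to 5.86 TPM in the other groups. Among them Pvalb reached 2.67 CPM in chow Renin, while the myosin Myh4 was at most 0.0436 CPM in any group, and their part in the Aqp4 values was not tested.

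**Figure D4:**
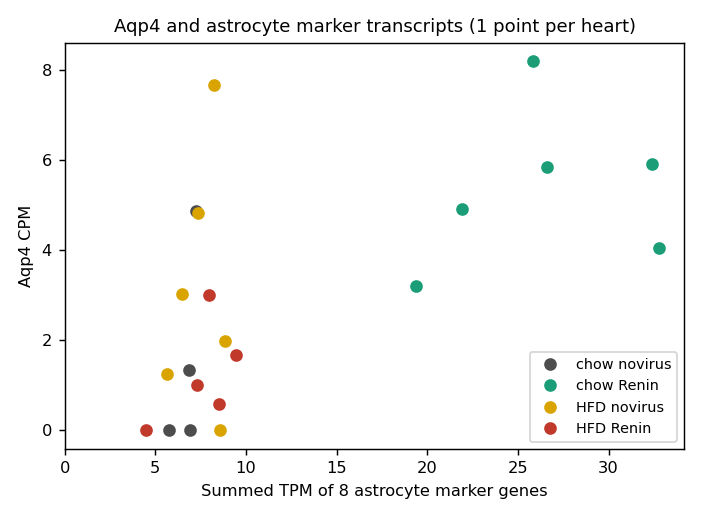
Aqp4 CPM against the summed TPM of 8 astrocyte markers, on linear axes, with 1 point per heart colored by group. The 6 chow Renin hearts lie apart at 19.4 to 32.8 TPM of astrocyte markers, while the other hearts span 0 to 7.67 CPM of Aqp4 at under 10 TPM.

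The genes most like Aqp4 were Lgi2, Ssrp1, Zdhhc23, Brsk1 and Plk5, with rho from 0.80 to 0.85. Ssrp1, a subunit of a histone chaperone, had an r of 0.67, and Zdhhc23, a protein palmitoyltransferase, had one of 0.76. Without the 2 libraries farthest from the median of Aqp4 these were 0.60 and 0.71. Brsk1, a kinase of neurons, measured 7.77 to 13.5 CPM in chow Renin and 2.70 to 5.62 CPM in the other 15 hearts.

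The dystrophin complex, to which AQP4 is anchored, was measured in 15 genes. In HFD Renin against HFD novirus 2 rose and 1 fell, against 11.1% of all genes called, with a median log2 fold change of 0.09 against -0.01 over all genes. Sntb1, a syntrophin, rose by 0.74 (edgeR adjusted p 0.0235), Utrn, the relative of dystrophin, by 0.29 (adjusted p 0.0265), and Sgca, a sarcoglycan, fell by 0.32 (adjusted p 0.00942). With the clock covariate these 3 calls were lost, at 0.34 for Sntb1, 0.19 for Utrn and -0.22 for Sgca (edgeR adjusted p 0.457 to 0.749). Against chow Renin 4 rose and 1 fell, with 22.6% of all genes called and a median of 0.19 against 0.02. Against chow novirus 2 rose and 1 fell, with 8.29% of all genes called, and in chow Renin against chow novirus 1 fell, with 13.5% called. These 4 calls were lost with the clock covariate, with Sgca at -0.14, Lama2, a laminin chain, at 0.09, Sgcd, a sarcoglycan, at 0.65 and Sspn, or sarcospan, at -0.23 (edgeR adjusted p 0.149 to 0.895).

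Genes of cell volume and water balance were 22 in number. Between HFD Renin and HFD novirus, where 11.1% of all genes were called, 2 rose, namely Wnk1, a chloride-sensing kinase that controls salt cotransporters (0.43, edgeR adjusted p 0.00523), and Slc12a4, a potassium-chloride cotransporter (0.22, adjusted p 0.0111). Their renin effects differed between the diets, with interactions of 0.55 (SE 0.14, edgeR adjusted p 0.00857) and 0.37 (SE 0.08, adjusted p 0.00202). Of the 22, 3 were called higher and 0 lower in the interaction, where 10.4% of all genes were called. With the clock covariate Wnk1 was at 0.20 (edgeR adjusted p 0.543) and Slc12a4 at 0.18 (adjusted p 0.393) between HFD Renin and HFD novirus, while their interactions were 0.56 (adjusted p 0.00105) and 0.38 (adjusted p 0.00144). Lrrc8b, a subunit of the volume-regulated anion channel, was higher in chow Renin than in chow novirus (0.57, edgeR adjusted p 0.00258) and lower in HFD Renin than in chow Renin (-0.61, adjusted p 0.000388). In the first comparison 2 of the 22 rose and 0 fell, where 13.5% of all genes were called, and in the second 5 rose and 2 fell, where 22.6% were called. Both comparisons, and the interaction, use the libraries with astrocyte and neuron transcripts. With the clock covariate the first comparison gave Lrrc8b at 0.51 (edgeR adjusted p 0.055), and the second gave it at -0.64, still called (adjusted p 0.000659).

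Of 20 genes that make or remove hydrogen peroxide, which AQP8 can pass, 1 rose and 1 fell in HFD Renin against HFD novirus, a share near the 11.1% called over all genes, with a median log2 fold change of -0.01, the same as over all genes. Txnrd1, a thioredoxin reductase, rose by 0.19 (edgeR adjusted p 0.0217) and Prdx5, a peroxiredoxin, fell by 0.26 (adjusted p 0.0319). Cat, or catalase, was higher in HFD Renin than in chow novirus (0.37, edgeR adjusted p 0.01) and than in chow Renin (0.24, adjusted p 0.0275). With the clock covariate Txnrd1 was at 0.12 (edgeR adjusted p 0.596) and Prdx5 at -0.22 (adjusted p 0.521). Cat was then at 0.38 against chow novirus, as large as before but no longer called (edgeR adjusted p 0.506), and at 0.24 against chow Renin (adjusted p 0.0409).

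Of the other 8 annotated aquaporins, Aqp11, a channel of the endoplasmic reticulum, passed the filter on low counts. It measured 1.23 to 2.55 CPM over all hearts and was called in 0 of 6 comparisons, with log2 fold changes from -0.25 to 0.13, edgeR unadjusted p of 0.264 or more and DESeq2 adjusted p of 0.655 or more. Aqp2, the vasopressin-regulated channel of the kidney, had 0 to 13 reads per library. Aqp5 had 0 to 8, Aqp6 and Aqp9 0 to 4 each, and Aqp3 and Mip 0 to 3 each. Aqp12 had 0 reads in all 21 libraries.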

How the data were processed

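Heart RNA of 21 mice was sequenced, 1 library per heart, and with group and replicate read from the titles. The submitters' processing notes name Salmon 1.10.2, DESeq2 1.40.2, GRCm38 and mm10. Per the file headers, the deposited transcript tables hold estimated counts (expected counts, not normalized) and TPM. A deposited matrix of the authors gives a scaled signal per gene, and the scaling is not given in the sources used here.

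Of 119215 transcripts, 98.0% matched GENCODE M21 by identifier, and the rest, 0.854% to 0.925% of reads, were left out. Gene totals were the rounded sums of their transcripts. edgeR 4.0.16 (R 4.3.3) was used with filterByExpr (15216 genes kept), TMM factors (0.886 to 1.09), 1 term per group over 21 libraries, robust glmQLFit and the quasi-likelihood F test. Benjamini-Hochberg adjustment ran over all genes and calls were made at 0.05. SE is the absolute log2 fold change over the square root of F. CPM uses TMM-scaled totals, and log2 CPM a prior count of 2. The fit was tested on simulated data.

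Named are the 4 members, the other aquaporins, the 5 genes with the highest rho per member, and up to 4 called genes per list in a comparison. Members and lists were chosen with earlier results of these data known. Alternatives were DESeq2 1.42.0, upper-quartile factors, no filter, a replicate block, a clock covariate, 2-group fits, thinning and leaving out libraries. Same-numbered libraries of different groups had correlations of deviations from -0.27 to 0.48, with a median of 0.10. Those with other numbers had -0.35 to 0.48, with a median of -0.02, so no clear pairing by number was seen. No pair of libraries of a group agreed within sampling noise (lowest chi-square per degree of freedom 3.51). Protein sequences were not used here. Reading the clock covariate for list genes was added after seeing the data. Some genes of the lists are not reported here by name.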

Additional observations from a re-analysis of the deposited data

Results flagged for a closer look

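The TPM of Aqp7 in 2 hearts stood apart from the rest of their groups. HFD novirus replicate 6 had 15.9 TPM, and its gap to the next heart was 0.716 of the group's range, above Dixon's critical value of 0.625. HFD Renin replicate 2 had 6.45 TPM, at a ratio of 0.745 against a critical value of 0.71. On the CPM scale neither exceeded the critical value. Chance alone flags about 1 in 20 groups, and 32 sets of values were looked at (4 genes in 4 groups on 2 scales).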

How the results depend on the processing

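Of the tested member results, the Aqp7 call in HFD Renin against HFD novirus (-0.43) was lost with the clock covariate (-0.36, adjusted p 0.525) and in the 2-group fit (-0.43, adjusted p 0.0826). It ranged from -0.47 to -0.29 when single hearts were left out, with adjusted p from 0.0184 to 0.0962. Aqp4 in HFD Renin against chow Renin was gained in the 2-group fit (-2.07) and, in an alternative chosen after seeing the data, without the 4 libraries at 0 (-1.78). With the clock covariate, Aqp4 in HFD Renin against chow novirus turned to 1.63, Aqp7 in chow Renin against chow novirus to 0.04 and Aqp8 there to -0.78, and untested Aqp8 in HFD Renin against chow novirus moved to 0.49. In those comparisons with chow novirus the clock scores of the groups did not overlap, so score and group cannot be told apart. Leaving out 1 heart moved Aqp4 in HFD Renin against chow novirus from -0.91 to 1.49, Aqp7 in chow Renin against chow novirus from -0.08 to 0.03 and the Aqp1 interaction from -0.16 to 0.02. The cause was not tested. The replicate block, on numbers that showed no clear pairing of the libraries, changed no member call (Aqp7 in HFD Renin against HFD novirus -0.33, edgeR adjusted p 0.0354).

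Counts of called genes moved more, with the same limit on the clock covariate for HFD Renin against chow novirus. HFD Renin against HFD novirus gave 1696 genes, 10 with the clock covariate, 549 in the 2-group fit and 696 to 2394 without 1 heart (fewest without HFD Renin replicate 1, 2 or 5, at 696, 934 and 784). HFD Renin against chow novirus gave 1262, with 0 under the clock covariate (edgeR, 1241 at an unadjusted p under 0.05), 803 in the 2-group fit and 565 to 1723 without 1 heart (691, 623 and 565 without chow novirus 1, 2 or 4, and 664, 793 and 686 without HFD Renin 1, 2 or 5). HFD novirus against chow novirus gave 10, with 108 by DESeq2, 0 with the replicate block (edgeR, 1519 at an unadjusted p under 0.05), 21 with the clock covariate, 5 in the 2-group fit, 6 after thinning and 0 to 57 without 1 heart, with 57 without HFD novirus replicate 4 and at most 3 without any other. Aqp4, with 0 to 222 reads per library, moved when 1 heart was left out, from 1.35 to 3.57 in chow Renin and 0.51 to 2.78 in HFD novirus, each against chow novirus.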
